A study of Homo sapiens with 6 samples.

Results

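Telomerase, the shelterin complex and the chromatin factors ATRX and DAXX were examined in U-2OS and KHOS, a pair of established human osteosarcoma cell lines. The 10 genes are TERT, DKC1, TERF1, TERF2, TERF2IP, POT1, TINF2, ACD, ATRX and DAXX, read through the probe sets that the annotation of the Affymetrix U133 Plus 2.0 array maps to one of these symbols. Of 54613 probe sets tested, 22 carried a member symbol alone. DKC1 was read through 1 further probe set, 201479_at, which the annotation also gives to MIR664B and SNORA56, small RNAs within the gene, but whose accession is a RefSeq transcript of DKC1. This choice was made after the annotation was seen. Another 2 probe sets with the same 3 symbols were left unnamed, so 23 probe sets are described.

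Each line had 1 array for each of 3 conditions: control cells, for which no vector is named, cells transfected for 48 hours with the empty vector miRSelect pEP-miR-Null, and cells transfected for 48 hours with miRSelect pEP-miR-1, which carries the muscle microRNA miR-1. KHOS cells carry a transforming Kirsten murine sarcoma virus. Every array held RNA pooled from 3 flasks, so the spread between flasks is not in the values and each line is 1 line rather than a class of tumours. Values are RMA expression values on the log2 scale, where a difference of 1 is a doubling of signal.

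Linear chromosomes shorten at each replication unless telomeric repeats are added back. Most cancers do so with telomerase, a reverse transcriptase (TERT) that copies an RNA template held in a particle with dyskerin (DKC1). Some tumours, osteosarcomas among them, instead copy telomeres by recombination, a route called alternative lengthening of telomeres (ALT). U-2OS is a standard ALT line and is known to lack TERT activity and ATRX protein. Shelterin coats the repeats: TERF1 and TERF2 bind double-stranded repeats, TERF2IP rides on TERF2, POT1 binds the single-stranded end with its partner ACD, and TINF2 joins the others. ATRX and DAXX load the histone variant H3.3 at telomeres and other repeats. The labels do not give a telomere maintenance route for KHOS.

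U-2OS arrays had higher spike-in controls (10.81 to 11.65, against 9.76 to 10.13 in KHOS) and a narrower interquartile range (2.75 to 3.07, against 3.24 to 3.36). Array medians were 5.07 to 5.15 in U-2OS and 4.98 to 5.02 in KHOS. Over all probe sets with a mean between 7 and 11, where 14 of the 23 member probe sets lie, the median U-2OS minus KHOS difference was -0.26 as deposited and 0.05 after quantile normalization. Small negative differences below should be read against that shift, whose part in them was not tested. As markers of the labelled origin, SPARC and COL1A1 were above 10 on all 6 arrays, VIM was at 13.15 to 13.62 in U-2OS and 14.21 to 14.30 in KHOS, and RUNX2, the osteoblast factor, was at 4.23 to 6.74 in U-2OS against 8.98 to 9.85 in KHOS. COL1A2 and ALPL stayed below 5 on all arrays. The 5 blood markers measured summed to 24.05 to 24.78 in U-2OS and 23.95 to 24.57 in KHOS. Over the 6 arrays PTPRC, the lowest of them, read 3.53 to 3.75 and HBB, the highest, 7.07 to 7.40. The 6 epithelial markers summed to 30.88 to 31.79 in U-2OS and 32.49 to 33.09 in KHOS, where EPCAM stood at 8.43 to 8.70 (5.49 to 5.96 in U-2OS), while CLDN4 was higher in U-2OS (0.78, adjusted p = 0.0169 in limma). The 5 endothelial markers summed to 24.83 to 26.03 in U-2OS and 22.89 to 23.88 in KHOS. The 10 mesenchymal and osteoblast markers summed to 74.5 to 81.5 in U-2OS and 87.7 to 89.4 in KHOS, with NT5E at 3.63 to 3.88 in U-2OS against 11.57 to 11.99 in KHOS. Of these 10 markers 4 were higher in U-2OS, THY1 (1.66), COL1A1 (0.67), SPARC (0.66) and ALPL (0.56), and 4 were lower, NT5E (-8.05), RUNX2 (-4.32), CDH2 (-1.47) and VIM (-0.95). RMA gives no zeros, and the part of these differences in the results was not tested.

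The main comparison set U-2OS against KHOS over the 6 arrays, with treatment as a second term (limma, Benjamini-Hochberg adjusted over all 54613 probe sets, passing below 0.05). The sharpest contrast lay within ATRX, where 1 probe set was near the bottom of the scale in U-2OS while others were as high as in KHOS or higher. TERF1 and POT1 were lower in U-2OS by both of their probe sets, and DAXX was higher by both of its probe sets. In all, 8 of 23 member probe sets passed (34.8%), 3 higher and 5 lower, against 31.5% of all probe sets, 14.3% higher and 17.2% lower. The share of members is near that of all probe sets, so the count alone says nothing about these genes. The groups did not overlap for 11 of 23 members (47.8%), 4 with U-2OS above and 7 with U-2OS below, against 49.3% of all probe sets, 29.0% above and 20.3% below. Arrays correlated at 0.978 to 0.996 within a line and 0.910 to 0.937 between lines, and over all probe sets 7834 were higher and 9371 lower. With array medians aligned that split was 5200 and 10538.

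**Figure D1:**
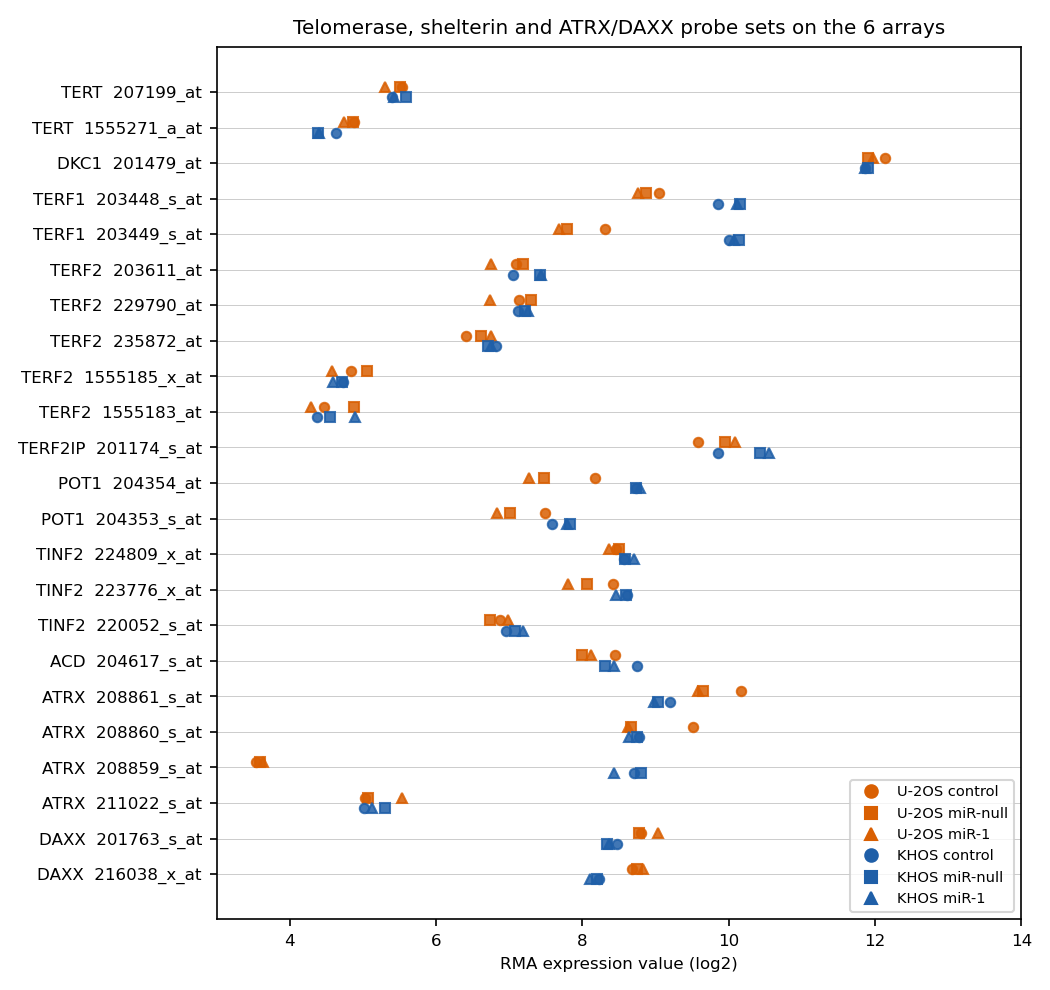
Expression values (log2, horizontal axis) of the 23 probe sets on the 6 arrays; orange marks are U-2OS and blue marks KHOS, with circles for control, squares for miR-null and triangles for miR-1. ATRX 208859_s_at is at 3.54 to 3.64 in U-2OS and 8.44 to 8.80 in KHOS, and both TERF1 probe sets lie lower in U-2OS.

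ATRX, an SWI/SNF-type remodelling enzyme on chromosome X (chrX:77504880-77786216, GRCh38.p14), had 4 probe sets. ATRX 208859_s_at read 3.54, 3.59 and 3.64 in U-2OS, against 8.70, 8.80 and 8.44 in KHOS; here and below the order is control, miR-null, then miR-1. All U-2OS values were far below all KHOS values. The fitted difference was -5.05 ± 0.14 (log2, SE; adjusted p = 3.39e-06 in limma), a 33.2-fold lower signal on the RMA scale. The U-2OS values lie at the floor of the scale, among those of tissue genes not expected in these lines (3.53 to 7.40 in U-2OS), so the size of the fold depends on that floor.

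The other ATRX probe sets went another way. ATRX 208861_s_at read 10.17, 9.65 and 9.58 in U-2OS, against 9.19, 9.03 and 8.97 in KHOS. Here every U-2OS array was above every KHOS array, by 0.74 ± 0.14 (log2, SE; adjusted p = 0.0076 in limma). Without the miR-null array of either line the call was lost (0.79, adjusted p = 0.0608). ATRX 208860_s_at read 9.52, 8.67 and 8.62 in U-2OS and 8.77, 8.75 and 8.64 in KHOS. These groups overlapped, and the difference of 0.21 did not pass (95% interval -0.24 to 0.66, adjusted p = 0.434 in limma), although it did after quantile normalization (0.56, adjusted p = 0.0313; adjusted p 0.0313 to 0.826 over the alternatives). ATRX 211022_s_at was at 5.04 to 5.54 in U-2OS and 5.02 to 5.30 in KHOS, with a difference of 0.07 (95% interval -0.31 to 0.45).

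The probe sets of ATRX thus differed by 5.79 (log2) in their line difference. This size also depends on the floor that 208859_s_at reads in U-2OS. The median gap over the 10608 genes with at least 2 probe sets was 0.56, and ATRX ranked 13 from the largest gap. Of 54613 probe sets 213 were lower in U-2OS by at least 4 log2 units. Only 2 genes combined such a probe set with another that averaged at least 8 in U-2OS and was not lower there, ATRX and COCH, a pattern and a gene chosen after their values were seen. In the opposite direction 0 genes did so. Which part of the ATRX transcript each probe set reads is not in the files used here.

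**Figure D2:**
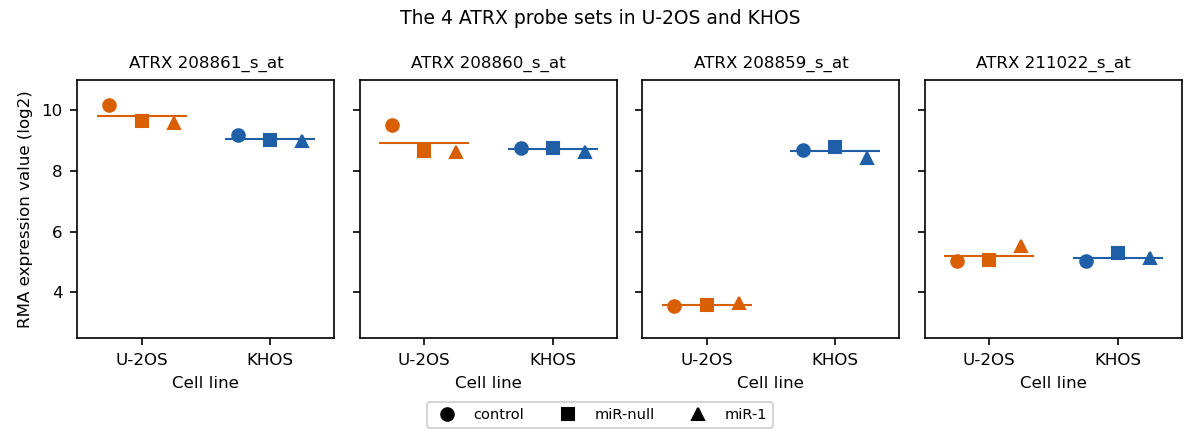
Expression values (log2) of the 4 ATRX probe sets, with the U-2OS arrays left of the KHOS arrays in each panel and a line at the mean of the 3 arrays. The 208859_s_at panel shows U-2OS means of 3.59 against 8.65 in KHOS, while 208861_s_at has 9.80 in U-2OS and 9.07 in KHOS.

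DAXX, the H3.3 chaperone that works with ATRX, was higher in U-2OS. DAXX 201763_s_at read 8.81, 8.78 and 9.03 in U-2OS, against 8.47, 8.34 and 8.37 in KHOS. DAXX 216038_x_at read 8.67, 8.75 and 8.83 in U-2OS, against 8.22, 8.20 and 8.10 in KHOS. Neither pair of groups overlapped. The differences were 0.48 ± 0.13 (SE, adjusted p = 0.0336 in limma) and 0.58 ± 0.13 (SE, adjusted p = 0.0157 in limma). They were larger after quantile normalization, at 0.82 and 0.93. The call for 201763_s_at was lost with array medians aligned (0.36) and with limma's mean-dependent prior variance. Both calls were lost without the miR-null array of either line (0.50 and 0.59) or the miR-1 array of either line (0.39 and 0.50). Probe sets ending in x_at can also catch related transcripts.

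TERT, the catalytic subunit (chr5:1253167-1295068, GRCh38.p14), read low in both lines. TERT 207199_at had 5.53, 5.504 and 5.30 in U-2OS and 5.40, 5.58 and 5.43 in KHOS. These values overlapped, with a difference of -0.03 (95% interval -0.34 to 0.29, adjusted p = 0.899 in limma). TERT 1555271_a_at had 4.88, 4.86 and 4.74 in U-2OS and 4.63, 4.39 and 4.40 in KHOS. The groups did not overlap, but the difference of 0.36 ± 0.13 (SE) did not pass (adjusted p = 0.0772 in limma; 0.0504 to 0.376 over the alternatives). Genes of other tissues, for which no transcript was expected in these lines, spread over 3.53 to 7.40 in U-2OS and 3.51 to 7.34 in KHOS on their 13 probe sets. The TERT values lay inside that range in both lines, but its upper end came from 1 probe set, HBB 217232_x_at. The next highest, GFAP 203539_s_at, reached 6.37 in U-2OS and 5.36 in KHOS. All TERT values in U-2OS were below 6.37, while 207199_at was at 5.40 to 5.58 in KHOS, just above 5.36. In KHOS the placing of 207199_at against probe sets with no transcript expected thus depends on HBB. The array did not clearly separate TERT from such probe sets, and a low TERT level in KHOS cannot be told from none.

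The TERT promoter is shown because its textbook regulators are compared further on. The sequences printed here are those of RefSeq (GRCh38.p14), 250 bases before to 50 after the gene's start, 5′ to 3′ on the gene's own strand. Capitals mark matches, on either strand, to the E-box CACGTG bound by MYC and MAX and the GC box GGGCGG bound by SP1 and SP3. They also mark the ETS sequence CCGGAA, a longer form of the ETS core GGAA.
TERT, chr5:1295019-1295318, minus strand: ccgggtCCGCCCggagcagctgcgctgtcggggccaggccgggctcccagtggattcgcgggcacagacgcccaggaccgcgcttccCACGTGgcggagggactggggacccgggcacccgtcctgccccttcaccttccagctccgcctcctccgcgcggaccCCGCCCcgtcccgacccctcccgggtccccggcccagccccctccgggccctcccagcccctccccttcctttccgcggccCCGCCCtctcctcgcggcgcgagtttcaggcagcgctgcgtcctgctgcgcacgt
This window held 1 E-box, 3 GC boxes and 0 matches to CCGGAA. The shorter core GGAA was not counted, and it occurs in this window as TTCC on the printed strand. Among 35116 RefSeq promoters of the same length, 7.26% held the E-box, 45.0% the GC box and 17.2% the ETS sequence CCGGAA. The TERT window ends in cacgt, so an E-box running past its end would not be counted. The matches are letters only, and no binding was measured.

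DKC1, the pseudouridine synthase that stabilises telomerase RNA and also modifies ribosomal RNA, was strongly read in both lines. DKC1 201479_at had 12.14, 11.90 and 11.97 in U-2OS and 11.86, 11.90 and 11.86 in KHOS. The groups overlapped, and the difference was 0.13 (95% interval -0.18 to 0.44, adjusted p = 0.492 in limma).

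Among the shelterin genes that bind double-stranded repeats, TERF1 was lower in U-2OS and TERF2 did not pass. TERF1 203449_s_at read 8.31, 7.80 and 7.68 in U-2OS, against 9.9999, 10.14 and 10.07 in KHOS. TERF1 203448_s_at read 9.04, 8.87 and 8.76 in U-2OS, against 9.86, 10.16 and 10.12 in KHOS. Both probe sets kept the lines fully apart. Their differences were -2.14 ± 0.17 (SE, adjusted p = 2.15e-04 in limma) and -1.15 ± 0.15 (SE, adjusted p = 0.0017 in limma), so the probe sets share a direction but differ in size. Both passed in all alternatives in which they were tested, 11 and 12, with ranges of -2.37 to -1.84 and -1.32 to -0.86.

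TERF2 had 5 probe sets, and 0 of them passed. Their fitted differences ran from -0.29 to 0.15, and the groups overlapped for each. TERF2 203611_at had 7.10, 7.19 and 6.75 in U-2OS and 7.05, 7.42 and 7.43 in KHOS, with a 95% interval of -0.69 to 0.11 for the difference. Without the control array of either line this probe set passed, at -0.46.

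POT1, the single-strand binding protein (chr7:124822386-124929825, GRCh38.p14), was lower in U-2OS by both probe sets. POT1 204354_at read 8.17, 7.47 and 7.28 in U-2OS, against 8.74, 8.74 and 8.79 in KHOS. POT1 204353_s_at read 7.49, 7.01 and 6.84 in U-2OS, against 7.59, 7.83 and 7.80 in KHOS. The groups did not overlap, and the U-2OS control array was the closest to KHOS. The fitted differences were -1.12 ± 0.20 (SE, adjusted p = 0.0055 in limma) and -0.63 ± 0.19 (SE, adjusted p = 0.044 in limma). Between the control arrays alone they were -0.57 and -0.11. The call for 204354_at was lost without the miR-null array of either line (-1.04, adjusted p = 0.0646). That for 204353_s_at was lost after quantile normalization (-0.31) and without the miR-null (-0.53) or miR-1 (-0.46) array of either line.
POT1, chr7:124929776-124930075, minus strand: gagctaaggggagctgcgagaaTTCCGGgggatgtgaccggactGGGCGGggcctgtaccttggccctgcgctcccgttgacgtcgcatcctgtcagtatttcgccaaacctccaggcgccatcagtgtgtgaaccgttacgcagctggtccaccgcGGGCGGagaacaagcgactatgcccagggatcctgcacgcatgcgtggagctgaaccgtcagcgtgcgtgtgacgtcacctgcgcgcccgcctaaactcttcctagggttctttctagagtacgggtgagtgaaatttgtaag
The POT1 window, shown because POT1 was a lower member with a promoter entry, held 0 E-boxes, 2 GC boxes and 1 match to the ETS sequence CCGGAA.

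The other shelterin genes had negative differences that did not pass. TERF2IP 201174_s_at read 9.57, 9.95 and 10.08 in U-2OS and 9.85, 10.43 and 10.55 in KHOS. In each treatment U-2OS was lower, and the fitted difference was -0.41 ± 0.13 (SE, adjusted p = 0.0504 in limma; 0.0230 to 0.396 over the alternatives, 5 of 12 of which passed). ACD 204617_s_at, the partner of POT1 that recruits telomerase, read 8.44, 7.99 and 8.12 in U-2OS and 8.75, 8.31 and 8.43 in KHOS. Its difference of -0.31 (95% interval -0.60 to -0.02, adjusted p = 0.101 in limma) was 0.05 after quantile normalization and passed at -0.43 with array medians aligned. The 3 TINF2 probe sets had -0.46, -0.21 and -0.18, of which 223776_x_at, at 8.42, 8.07 and 7.80 in U-2OS against 8.60, 8.59 and 8.46 in KHOS, came closest to the threshold (adjusted p = 0.0524 in limma). That probe set passed with array medians aligned (-0.57) and without the control array of either line (-0.59), and had -0.10 after quantile normalization. The other TINF2 probe sets turned positive after quantile normalization, at 0.17 and 0.06. Over the 23 members the median difference was -0.16, against 0.10 over all probe sets, which are not matched in level. For the 14 members with a mean between 7 and 11 the median was -0.30, against -0.26 over all probe sets of that level. After quantile normalization these medians were 0.02 and 0.05, so at like level the members lay close to all probe sets.

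**Figure D3:**
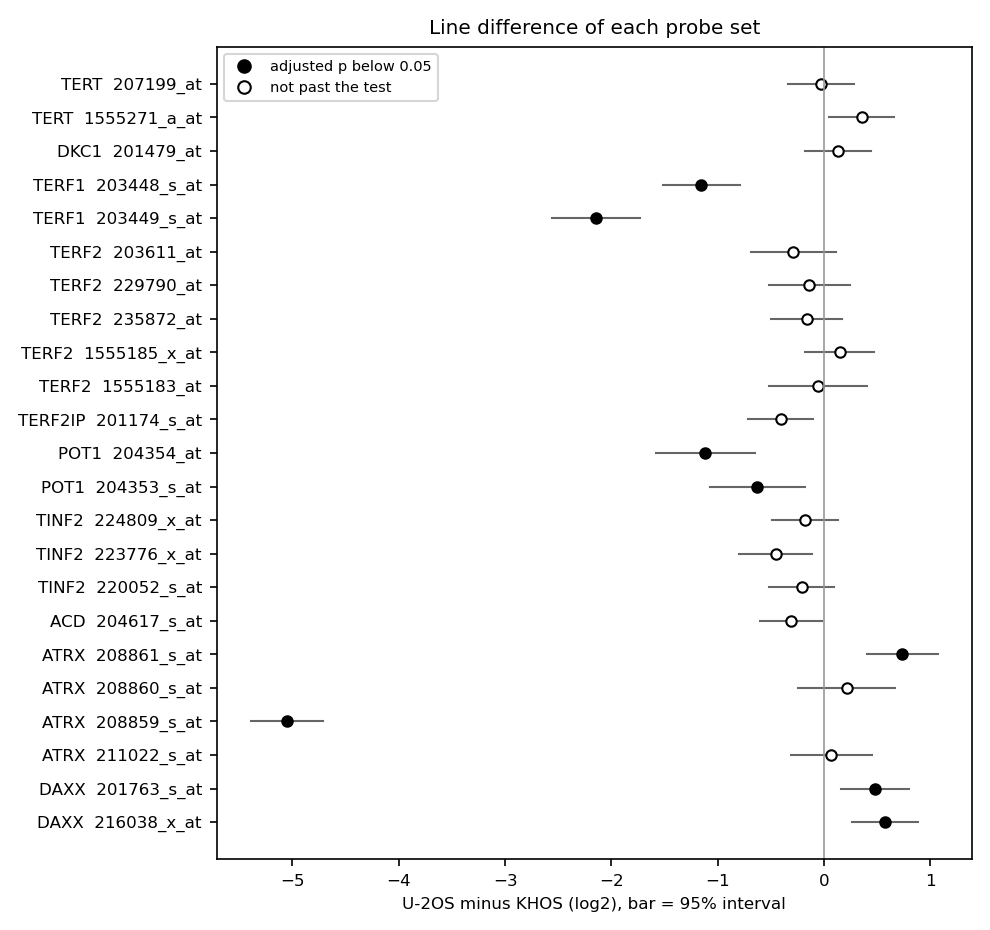
Fitted U-2OS minus KHOS difference (log2) of the 23 probe sets with 95% intervals from limma; filled points passed an adjusted p of 0.05. The 8 filled points are ATRX 208859_s_at at -5.05, both TERF1, both POT1, ATRX 208861_s_at at 0.74 and both DAXX probe sets.

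The other telomere genes were taken from 5 lists, each gene by its probe set with the highest mean. Of 76 genes measured 7 were higher and 34 lower in U-2OS, and 39.3% of all 20031 genes passed, 19.1% higher and 20.2% lower. The median difference over the lists was -0.43, against 0.12 over all genes. After quantile normalization 15 were higher (19.7%) and 27 lower (35.5%), with a median of -0.26. In that setting 22.5% of all genes were higher and 16.3% lower, with a median of 0.105. As deposited, among all probe sets with means from 7 to 9, 40.0% were lower and 19.5% higher. The list genes were not compared with genes of like level.

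In the telomerase particle and its assembly factors, 0 of 10 genes were higher and 3 were lower. NAF1, an H/ACA assembly factor, had -0.78 ± 0.21 (log2 difference, SE), RUVBL1, an ATPase of telomerase assembly, -0.60 ± 0.15, and WRAP53, which brings telomerase to Cajal bodies, -0.53 ± 0.14. After quantile normalization 1 gene of this list was higher and 0 were lower. The core particle proteins NHP2, NOP10 and GAR1 had -0.37, -0.30 and 0.18 and did not pass.

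Of 10 capping and telomere replication genes 1 was higher and 4 were lower. TNKS, the tankyrase that releases TERF1 from telomeres, had -1.97 ± 0.30, and ZBTB48, a telomere-binding zinc finger protein, -1.19 ± 0.22. RIF1, a double-strand break factor, had -0.78 ± 0.16, but its probe set 233781_s_at passed in the other direction at 0.65. SMG6, a nonsense-mediated decay nuclease, had -0.51 ± 0.15. DCLRE1B, the Apollo nuclease that works with TERF2, was higher by 0.55 ± 0.13.

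Recombination and ALT-associated factors showed 3 of 26 genes higher and 12 lower. SP100 and PML, components of the nuclear bodies that gather at telomeres in ALT cells, had -1.74 ± 0.23 and -1.32 ± 0.14. PML read 6.30, 6.48 and 6.38 in U-2OS, against 7.60, 8.03 and 7.50 in KHOS. NR2C2, an orphan nuclear receptor, had -1.67 ± 0.16, and NBN, the nibrin subunit of the MRN complex, -1.65 ± 0.16. Among the higher genes were NSMCE2, a SUMO ligase of the SMC5/6 complex (1.33 ± 0.13), and SLX4, a nuclease scaffold (0.57 ± 0.13).

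In the list of H3.3 deposition and heterochromatin 2 of 18 genes were higher and 9 lower. MORC3, an ATPase of PML bodies, had -2.91 ± 0.13, and ZMYND11, a reader of methylated H3.3, -2.19 ± 0.18. TRIM28, a corepressor, had -2.02 ± 0.15 and SETDB1, the H3K9 methyltransferase it recruits, -1.84 ± 0.17. CBX1, a heterochromatin protein, was higher by 1.15 ± 0.13 and CABIN1, a subunit of the HIRA complex, by 0.61 ± 0.13. H3-3B, which encodes H3.3, had 0.34 and did not pass (adjusted p = 0.094 in limma). CBX5, another heterochromatin protein, was lower by its brightest probe set (-1.05) and higher by 242069_at (1.15).

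Among 12 transcription factors of the TERT promoter 1 was higher and 6 were lower. MYC 202431_s_at, an activator of TERT through its E-boxes, read 11.75, 12.48 and 12.55 in U-2OS, against 8.52, 10.59 and 11.07 in KHOS, a difference of 2.20 ± 0.31 (SE, adjusted p = 0.0022 in limma). Its partner MAX did not pass (0.10). KLF4, a pluripotency factor, read 3.88, 4.03 and 3.97 in U-2OS and 10.25, 11.82 and 12.06 in KHOS, a difference of -7.42 ± 0.31. The U-2OS values of KLF4 lie among those of tissue genes not expected in these lines, so the size of this difference depends on the floor of the scale. The ETS family member ETS2 had -2.75 ± 0.41, and GABPA and GABPB1, the subunits of GA-binding protein, -2.39 ± 0.26 and -0.97 ± 0.18.

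**Figure D4:**
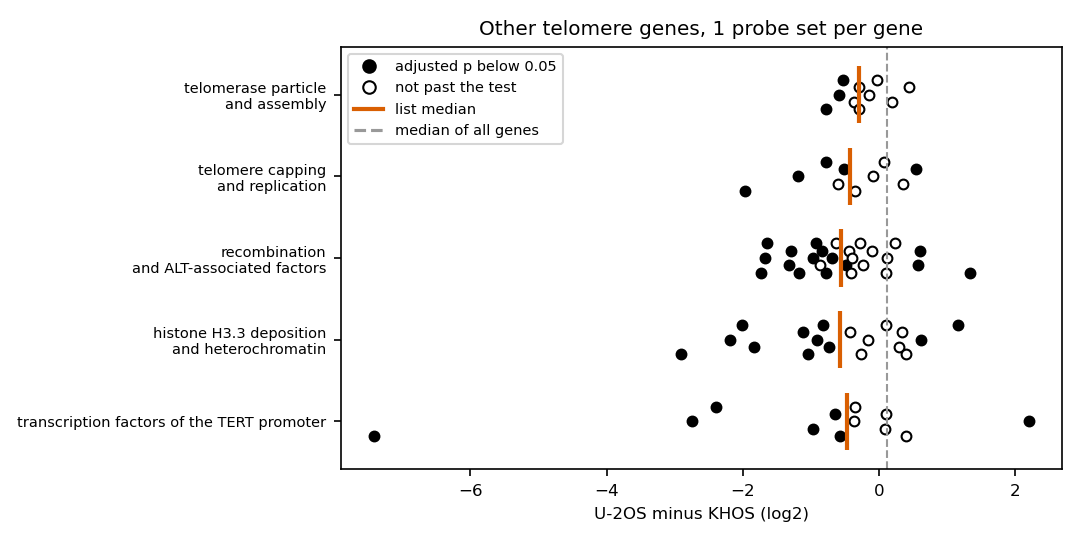
U-2OS minus KHOS difference (log2) of the 76 genes in the 5 telomere lists, 1 point per gene, filled where limma's adjusted p was below 0.05; orange bars are list medians and the dashed line is the median of all genes at 0.12. KLF4 is drawn at -7.42, a size that depends on the floor of the scale in U-2OS, and MYC at 2.20.

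The vector arrays were set against control to ask whether the members moved with transfection. Of 23 member probe sets 0 passed in limma, against 0.328% of all probe sets, and 4 had an unadjusted p below 0.05, against 13.2% of all. TERF2IP 201174_s_at had a vector minus control value of 0.44 in U-2OS and 0.64 in KHOS, with a fitted change of 0.54 ± 0.13 (SE, adjusted p = 0.114). ACD had -0.39 in U-2OS and -0.38 in KHOS, with a fitted change of -0.38 ± 0.12 (SE, adjusted p = 0.218). With the KHOS control array left out, the vector change rests on U-2OS alone, with 1 control array, so that setting does not speak to both lines. Array scale also moved with treatment. In U-2OS the interquartile range was 3.07, 2.84 and 2.75 and the spike-in mean 10.81, 11.33 and 11.65 for control, miR-null and miR-1. In KHOS these were 3.24, 3.32 and 3.36, and 9.76, 10.13 and 9.93. The part of these shifts in the changes within a line was not tested. For several probe sets the value within U-2OS was further from 0 than that within KHOS. POT1 204354_at had -0.79 in U-2OS and 0.03 in KHOS, POT1 204353_s_at had -0.56 in U-2OS and 0.22 in KHOS, and TERF1 203449_s_at had -0.57 in U-2OS and 0.11 in KHOS. ATRX 208860_s_at had -0.87 in U-2OS and -0.07 in KHOS, while ATRX 208859_s_at stayed near its low level in U-2OS (0.07).

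The difference between the lines in the vector change was tested as an interaction, in which each line has 1 control array. It shares those control arrays, and the shifts in array scale, with the comparison above. Of 23 members 0 passed in limma, against 0.608% of all probe sets, and 4 had an unadjusted p below 0.05, against 14.6% of all. These were POT1 204354_at (-0.82 ± 0.25, SE, adjusted p = 0.181 in limma), POT1 204353_s_at (-0.78 ± 0.24), ATRX 208860_s_at (-0.80 ± 0.24) and TERF1 203449_s_at (-0.68 ± 0.24). Among the 76 list genes HIRA, an H3.3 chaperone, and KLF4 passed here with -1.90 ± 0.30 and -1.58 ± 0.25 (limma adjusted p = 0.0413 for both), against 0.809% of all genes. KLF4 was at the floor on all 3 U-2OS arrays, where no change could be read, so its value reflects the KHOS arrays. MXD1, a MYC antagonist, was the 1 list gene that passed in the joint vector change (1.71 ± 0.15, adjusted p = 0.0163 in limma), against 0.334% of all genes.

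**Figure D5:**
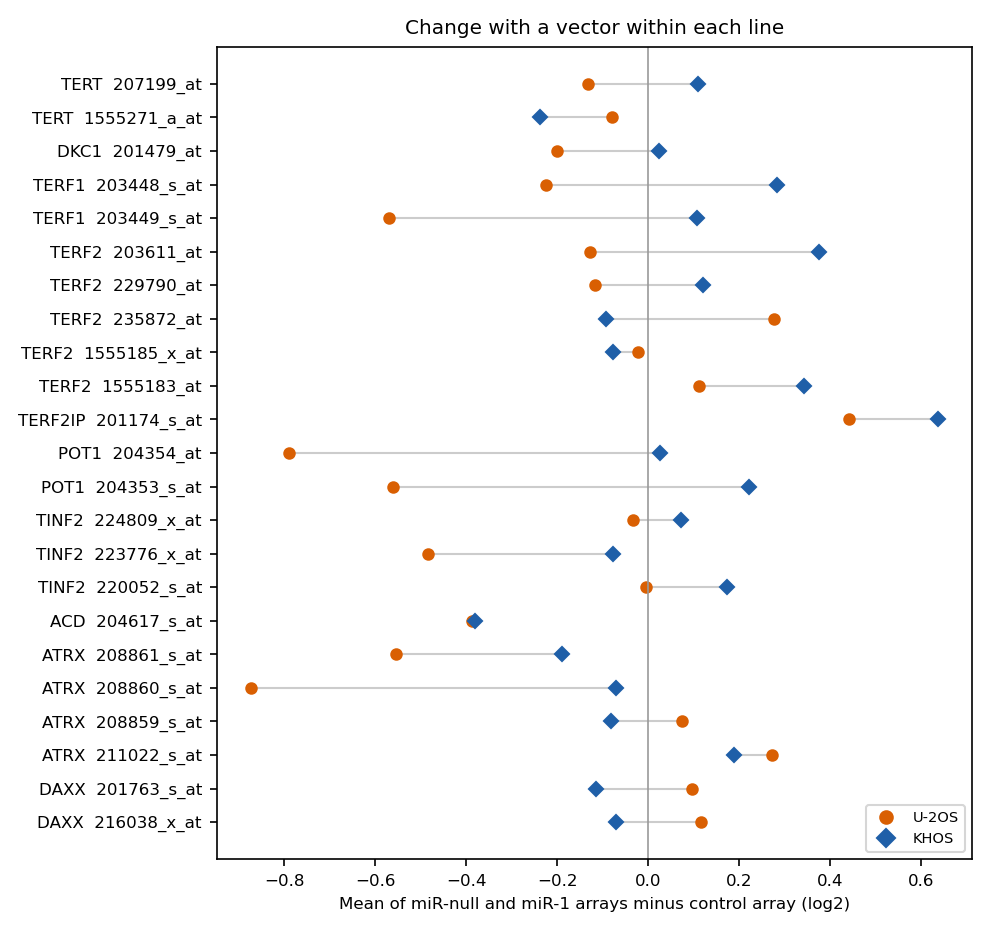
Mean of the miR-null and miR-1 arrays minus the control array (log2) within U-2OS (orange circles) and KHOS (blue diamonds) for the 23 probe sets. Each line has 1 control array, and POT1 204354_at shows -0.79 in U-2OS against 0.03 in KHOS.

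The miR-1 vector was set against the empty vector because the study asked which transcripts respond to miR-1. The mature microRNA is shown with its seed, bases 2 to 8, in capitals, since targets pair with it. It is encoded at chr20:62554351-62554372 on the plus strand and at chr18:21829015-21829036 on the minus strand.
hsa-miR-1-3p: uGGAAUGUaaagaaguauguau
Of 23 member probe sets 0 passed in limma, against 0.0% of all probe sets, and 0 had an unadjusted p below 0.05, against 1.34% of all. Fitted changes ran from -0.30 for TERF2 1555185_x_at to 0.18 for TINF2 220052_s_at, with a median of -0.07 against -0.03 over all probe sets. The typical 95% interval reached 0.41 to either side, on the log2 scale, which limits the changes these arrays could show. The 5 TERF2 probe sets had -0.44, -0.56, 0.13, -0.48 and -0.59 in U-2OS for 203611_at, 229790_at, 235872_at, 1555185_x_at and 1555183_at, against 0.00, 0.05, 0.04, -0.12 and 0.34 in KHOS. Each of these changes is 1 array against 1, with no replicate. In U-2OS TERF2 1555185_x_at read only 4.58 to 5.06 and 1555183_at 4.29 to 4.88. Tissue genes not expected in these lines had a median of 4.54 there.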

How the data were processed

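The authors deposited log2 expression values made with RMA, per the submitters' processing notes, in Qlucore per the series design text; each of 6 arrays held RNA pooled from 3 flasks. A scaling to each gene's average is also described there, but the values were not centred per gene. They ran from 2.83 to 14.90 with 0 missing. Of 54675 probe sets 62 controls were left out. The annotation gave 41091 probe sets 1 symbol, 1801 several and 11721 none; of those with several, 388 were named through an accession that RefSeq gives to 1 of their genes. Differences were fitted with limma 3.58.1 in R 4.3.3 (lmFit, eBayes) over all 54613 probe sets, with Benjamini-Hochberg adjustment and no level filter. The line fit had line and treatment as terms and 2 residual degrees of freedom, and the vector fit 3. No line and treatment had more than 1 array, so p-values do not measure a spread between like arrays. In the line and miR-1 fits they rest on how the line difference varied between treatments. In the interaction the miR-null and miR-1 arrays of a line served as replicates. The vector fit used these and the difference between the lines in the vector change. The number of arrays limits precision. The fit was run on simulated data with independent noise, without treatment effects or shifts in array scale. That run checks the code and does not speak to the error rate on these arrays.

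Named were all members and, from each other list, at most the 4 most raised and the 4 most lowered genes past the test; NOP10, NHP2, GAR1, H3-3B, CBX5, MAX, MXD1, HIRA and COCH fall outside this rule and were picked with values in view, and 1 gene within it is not reported here. The members and lists were chosen with earlier results of these data known. A gene read by several probe sets was taken in the lists by the one with the highest mean; of 41 list genes that passed, 2 had another probe set passing the opposite way. Alternatives were quantile normalization, aligned array medians, a filter at the median, a mean-dependent prior variance (limma trend), 1 probe set per gene among genes reaching the median level, no treatment term and leaving out each array. Genes whose pattern resembles the members' were not searched for, since the arrays fall into 2 lines.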

Additional observations from a re-analysis of the deposited data

How the results depend on the processing

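With 6 arrays, precision is limited, and values near the floor of RMA are compressed. Because treatment pairs the lines, leaving out an array also removes its partner from the line difference, so the arrays of 1 treatment give the same value. Of the line differences of single probe sets, 210 were on the same side of the threshold with the same sign, 12 passed newly, 19 no longer passed and 19 changed sign, none of the last having passed in the main setting. In U-2OS minus KHOS 8 member probe sets passed, 5 with 1 probe set per gene among the 13155 genes that reach the median level, and 3 to 11 when an array was left out; over all probe sets 17205 passed, 7196 of those 13155 genes (7875 of 20031 without the level limit, p adjusted over all probe sets) and 7738 to 23970 without an array. Fewer were called without the miR-null arrays (3 members) and more without the control arrays (11). For vector minus control 0 members passed, or 0 to 2 without an array, the 2 being POT1 204354_at and ATRX 208860_s_at without the KHOS control. Over all probe sets 179 passed there, against 304 after quantile normalization, 83 with medians aligned, 789 with a mean-dependent prior variance, 52 of the 13155 genes (67 of 20031) and 1 to 3302 without an array (1 without U-2OS miR-null, 16 without U-2OS miR-1, 747 without the U-2OS control, 2 without either KHOS vector array and 3302 without the KHOS control). For the line difference in the vector change 332 passed, against 40 after quantile normalization, 888 with the mean-dependent prior and 2 to 2579 without a vector array (2579 without U-2OS miR-null, 505 without U-2OS miR-1, 2 without KHOS miR-null and 3 without KHOS miR-1); without a control array it could not be fitted. With the control array of 1 line left out, the vector change was read from the other line alone. Between miR-1 and miR-null 0 passed in any of the alternatives run. Signs changed after quantile normalization for TERF2 229790_at (0.15) and 235872_at (0.0486), TINF2 224809_x_at (0.17) and 220052_s_at (0.0630), ACD (0.0478) and ATRX 211022_s_at (-0.0255, and -0.0491 with medians aligned). Without an array TERT 207199_at ran from -0.106 to 0.0275, TERF2 229790_at from -0.252 to 0.0541, TERF2 1555183_at from -0.25 to 0.21, ATRX 208860_s_at from -0.0554 to 0.361 and ATRX 211022_s_at from -0.10 to 0.21. The causes of these changes were not tested.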
